A study of Homo sapiens with 2 samples.

Results

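This account covers 10 genes of the PTPN family, the non-receptor protein tyrosine phosphatases: PTPN1, PTPN2, PTPN3, PTPN4, PTPN9, PTPN11, PTPN12, PTPN13, PTPN14 and PTPN23. They were taken as a fixed list of symbols, 10 of the 19775 genes that the array reads with at least 1 probe set assigned to a single gene, and every such probe set of theirs was used, 37 of 41091. A probe set is a group of short probes designed on a single transcript record. PTPN12 and PTPN13 have been reported elsewhere as targets of miR-194. The study hybridised total RNA from HEK-293T cells to 2 Affymetrix 3' expression arrays. The cells, an established human embryonic kidney line that carries the SV40 large T antigen, had received a synthetic miR-194 mimic or a negative control mimic by lipofection, in both cases at 50 nM and for 48 h, so both groups share the transfection. Each group held 1 array, which allows no p-value and leaves the culture, the labelling reaction and the mimic impossible to tell apart. Of 9 genes known from this line, 7 were above the signal floor on both arrays (PAX2, KRT8, KRT18, CDH2, VIM, NEFL and NEFM) and LHX1 and NEFH were not. Above the floor on both arrays were none of 6 hepatocyte and 6 enterocyte markers, none of the 4 blood markers with a probe set, 2 of 6 fibroblast markers and 1 of 5 endothelial markers.

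Protein tyrosine phosphatases remove phosphate from tyrosine residues and so oppose tyrosine kinases, although some members, PTPN11 above all, strengthen signalling. The non-receptor members lie inside the cell, and the domains beside the catalytic domain place each of them: SH2 domains bind phosphotyrosine, FERM domains bind the membrane cortex, and a lipid-binding or endosomal domain brings others to vesicles. A microRNA guides the silencing complex to transcripts that pair with its seed, bases 2 to 8 from the 5′ end, and usually lowers the level of those transcripts.

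The mature miR-194 sequences are shown because their seed is what a target transcript would have to match. They come from RefSeq on GRCh38.p14, with the seed in capitals. The 5p strand is encoded alike by a pair of genomic copies, MIR194-1 at chr1:220118206-220118227 and MIR194-2 at chr11:64891404-64891425, both on the minus strand, and the 3p strand listed is from MIR194-2 at chr11:64891368-64891389, minus strand. The labels do not say which strand the mimic was built to deliver.
hsa-miR-194-5p: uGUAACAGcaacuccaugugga
hsa-miR-194-3p: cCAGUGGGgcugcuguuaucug
A transcript that pairs with the whole 5p seed reads CUGUUAC, and for the 3p seed CCCACUG. Transcript sequences of the PTPN genes were not used here, so matches in them were not counted.

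Among the 10 genes, PTPN13 was lower by 1.5-fold or more with miR-194 and no gene was higher by that size. That is 1 of 10 lower, beside 7.31% of all 12769 genes analysed, and 0 of 10 higher, beside 2.98%. The median log2 difference of the 10 genes was -0.15 and that of all genes 0.02. The differences ran from -0.93 for PTPN13 to 0.58 for PTPN9, with 7 genes below 0 and 3 above (47.6% and 52.4% of all genes). At 2-fold the counts were 0 of 10 in both directions, beside 1.42% of all genes on the lower side and 0.431% on the higher. Here a difference is log2 signal with miR-194 minus log2 signal with the control mimic, taken from the gene's brightest probe set, and the value after the ± sign is the probe set error. That error is the share of a single probe set in the disagreement between 2 probe sets of the same gene (0.38, 0.31 and 0.27 at low, middle and high signal on the log2 scale). A gap between 2 values is set against both their errors combined. The probe set error stands in for a replicate error, which these data cannot give. In bulk RNA, fewer cells with a transcript and less of it per cell cannot be told apart.

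**Figure D1:**
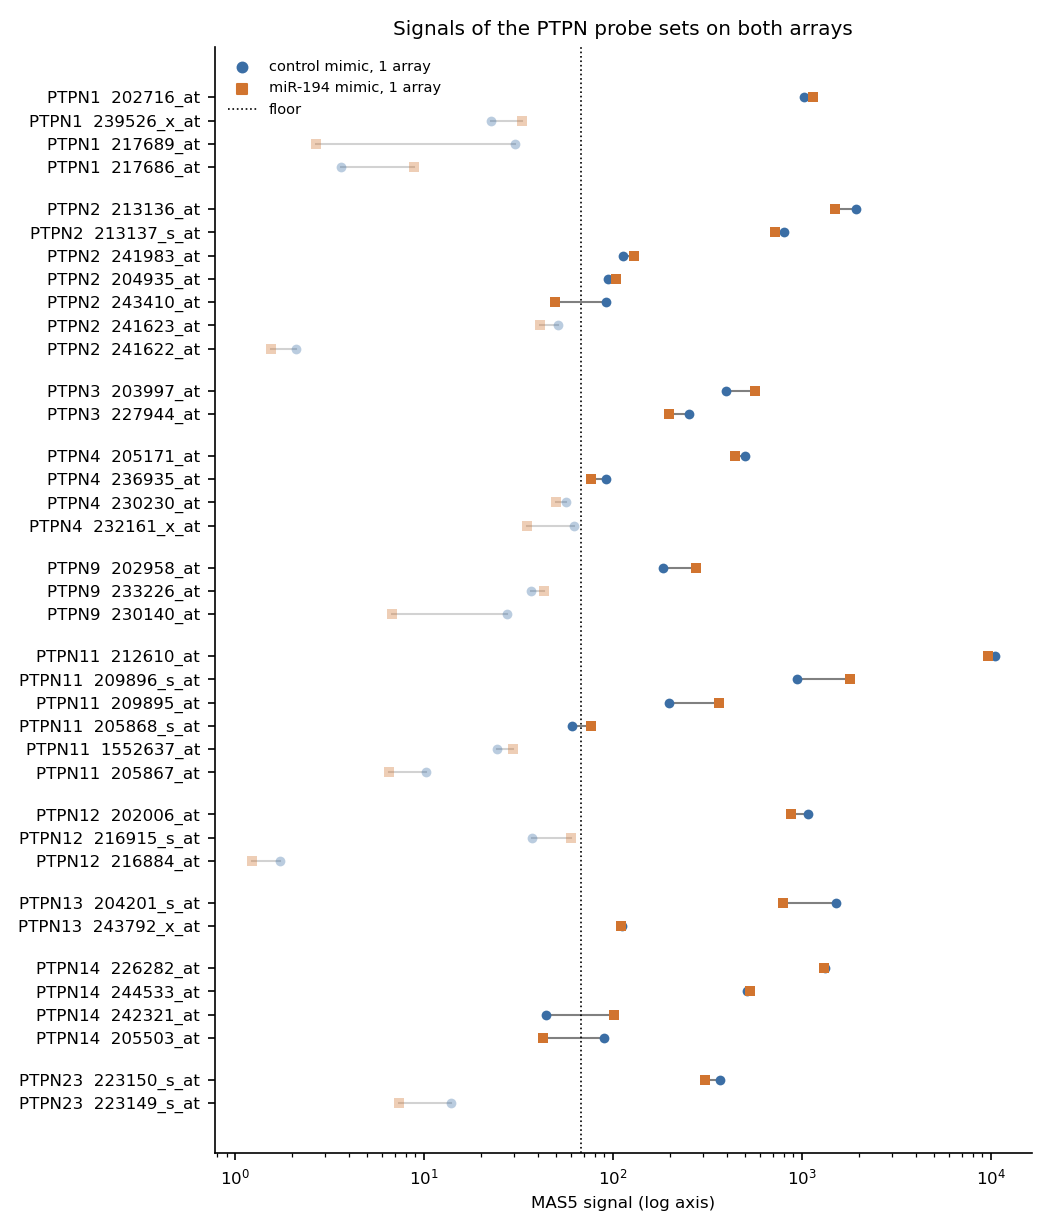
MAS5 signal (log axis) of all 37 probe sets of the 10 PTPN genes with the control mimic (blue circles) and the miR-194 mimic (orange squares), 1 array each, ordered by signal within each gene. The dotted line is the geometric mean of the floors of the arrays, 68.6 and 66.8, and the pale points mark the 14 probe sets under the floor on both arrays. The brightest PTPN13 probe set drops from 1519.7 to 797, while 2 of the PTPN11 probe sets lie higher by 1.5-fold or more with miR-194.

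All 10 genes had a brightest probe set above the floor on both arrays, the floor being each array's median signal (68.6 on the control array and 66.8 on the other). Of the 37 probe sets, 19 were above the floor on both arrays, 4 on a single array and 14 on neither. Those 14 had signals between 1.22 and 62.0, and their differences were not read. Of the 23 probe sets that were kept, 1 lay at least 1.5-fold lower and 2 at least 1.5-fold higher, beside 7.99% and 5.08% of all 24226 kept probe sets. For 14 of the 23 the difference was smaller than the probe set error.

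PTPN13 is the largest of these phosphatases, a scaffold with a FERM domain and PDZ domains that is known to bind the death receptor FAS. Its brightest probe set (204201_s_at, designed on the RefSeq mRNA) read 1519.7 on the control array and 797 on the miR-194 array. This is a log2 difference of -0.93 ± 0.31, or 1.91-fold lower, 3.01 times its error. The other PTPN13 probe set (243792_x_at, designed on a different GenBank record) read 112 and 111, a log2 difference of -0.01 ± 0.38. The lower level was thus seen by the brighter probe set and not by the dimmer. The dimmer was close to the floor (68.6 and 66.8), which limits what its flat reading can show. The gap between these 2 probe sets was 0.92 against an error of 0.49 for such a gap. Over the 3476 genes with 2 kept probe sets the median range was 0.29, with a 95th percentile of 1.01. Both are of types that can read sequence shared with other transcripts, so PTPN13 has no value from a probe set designed on unique sequence. Averaged over both probe sets the log2 difference was -0.47, which is under 1.5-fold.

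PTPN12, also known as PTP-PEST, dephosphorylates the focal adhesion adaptor p130Cas (BCAR1). It was read above the floor by 1 probe set (202006_at, designed on the RefSeq mRNA), with signals of 1071 and 876. The log2 difference of -0.29 ± 0.31, or 1.22-fold lower, was within its error. The other PTPN12 probe sets read 37.2 and 59.8, and 1.72 and 1.22, all under the floor. Of these 2 reported targets, then, PTPN13 stood beyond its error on 1 probe set and PTPN12 did not. The difference between PTPN13 and PTPN12 on their brightest probe sets was 0.64, against an error of 0.44. This gap rests on the choice of PTPN13 probe set. The dimmer PTPN13 probe set, at -0.01, lay above PTPN12. With the mean over kept probe sets PTPN13 was at -0.47, nearer to PTPN12 at -0.29.

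**Figure D2:**
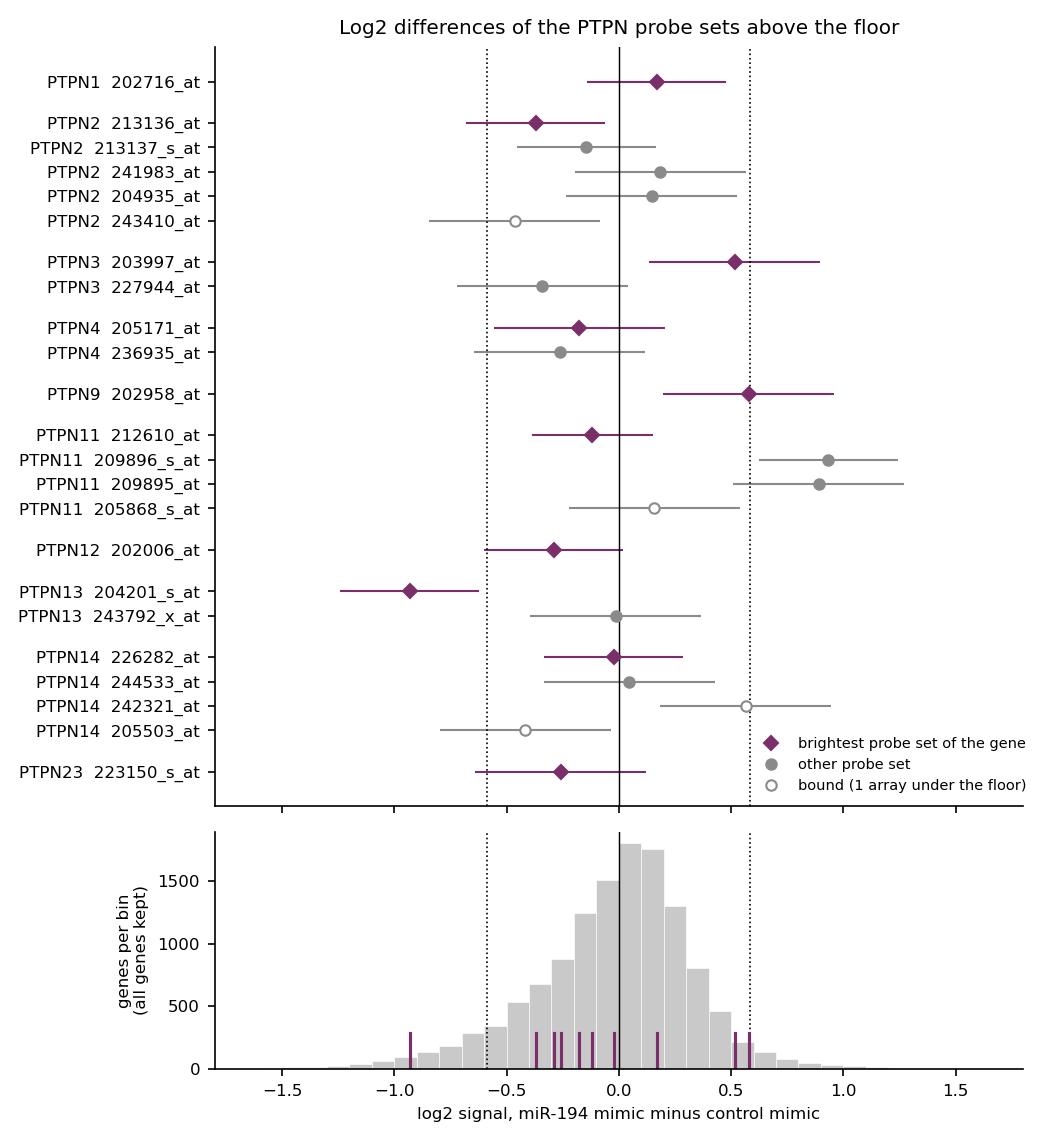
Top, log2 differences (miR-194 mimic minus control mimic) of the 23 kept probe sets of the 10 PTPN genes, with the probe set error as bars; open symbols are bounds and dotted lines mark 1.5-fold. Bottom, the same difference for the brightest probe set of all 12769 genes in bins of 0.1, cut at -1.8 and 1.8, with purple ticks for the 10 PTPN genes. PTPN13 stands apart at -0.93 on its brightest probe set, and 2 PTPN11 probe sets lie at 0.89 and 0.93.

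The SH2 domain phosphatase PTPN11, known as SHP2, is needed for full activation of the RAS and ERK pathway by growth factor receptors. Its probe sets did not read alike. The brightest (212610_at) had signals of 10493 on the control array and 9674 on the miR-194 array, a log2 difference of -0.12 ± 0.27. On the next brightest (209896_s_at) the signals were 940.3 and 1795, a log2 difference of 0.93 ± 0.31 or 1.91-fold higher. A dimmer probe set (209895_at) read 197 and 365, a log2 difference of 0.89 ± 0.38 or 1.85-fold higher. These 2 were designed on the same GenBank record and are not independent readings, and the brightest was designed on another record. Their gaps to the brightest probe set, 1.05 and 1.01, were 2.56 and 2.16 times the error of such a gap. The dimmest kept probe set (205868_s_at) read 60.5, under the floor, and 76.6, which is at least 1.12-fold higher. The range of 1.05 over the 4 kept probe sets compares with a median of 0.67 and a 95th percentile of 1.36 over the 740 genes with as many. Both probe sets designed on a RefSeq mRNA of PTPN11 were under the floor on both arrays, at signals of 6.48 to 29.6. Taken by the median of its 4 probe sets, PTPN11 would stand at 0.52 in place of -0.12.

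PTPN1 and PTPN2, known as PTP1B and TCPTP, are close relatives that dephosphorylate the insulin receptor and Janus kinases. PTPN1 read 1023 on the control array and 1151 on the miR-194 array on its single kept probe set, a log2 difference of 0.17 ± 0.31. PTPN2 read 1936 and 1497 on its brightest probe set, a log2 difference of -0.37 ± 0.31, which is 1.29-fold lower and 1.20 times its error. On the second PTPN2 probe set, of shared-sequence type, the signals were 798 and 722, a log2 difference of -0.15 ± 0.31. The remaining 3 kept PTPN2 probe sets were close to the floor: 2 were at 0.18 ± 0.38 and 0.15 ± 0.38, and the last read 92.1 and 49.3 and was at least 1.38-fold lower. The probe set at 0.15 was designed on a RefSeq mRNA of PTPN2, whereas no record was listed for the brightest. On their brightest probe sets PTPN1 and PTPN2 lay on opposite sides of 0, with log2 differences 0.54 apart against an error of 0.44. This rests on the choice of PTPN2 probe set. The PTPN2 probe sets at 0.18 and 0.15 had the sign of PTPN1. With the mean over kept probe sets PTPN2 was at -0.13, nearer to PTPN1.

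A further 3 members carry a FERM domain. PTPN3 and PTPN4 share the FERM and PDZ arrangement and act on membrane receptors and their adaptors. PTPN3 read 395 on the control array and 565 on the miR-194 array on its brightest probe set, 1.43-fold higher (log2 difference 0.52 ± 0.38). The other PTPN3 probe set read 252 and 199, a log2 difference of -0.34 ± 0.38, so the sign was not shared and the mean of both was 0.09. PTPN4 was lower on both kept probe sets by less than their error, at -0.18 ± 0.38 (signals of 500.4 and 443) and -0.26 ± 0.38 (91.6 and 76.3). The dimmer of these was close to the floor, which limits what it adds. PTPN14, which holds the coactivator YAP1 in the cytoplasm, read 1330 and 1309.6 on its brightest probe set, a log2 difference of -0.02 ± 0.31. The second PTPN14 probe set read 514 and 532, at 0.05 ± 0.38. The sign of the brightest PTPN14 probe set turned to above 0 with median centring and quantile normalization of the arrays. The dimmer 2 crossed the floor in opposite directions: 1 read 44.3 and 101.6 and was at least 1.48-fold higher, and the other read 89.1 and 42.4 and was at least 1.33-fold lower. The latter was designed on a RefSeq mRNA of PTPN14.

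PTPN9 and PTPN23 work on membranes of the secretory and endosomal routes. PTPN9, known as MEG2, has a lipid-binding Sec14 homology domain and acts on secretory vesicles. Its single kept probe set (202958_at, designed on the RefSeq mRNA) read 185 on the control array and 276 on the miR-194 array, a log2 difference of 0.58 ± 0.38. At 1.49-fold it lay just under 1.5-fold, and it passed 1.5-fold with median centring, quantile normalization and loess (log2 differences up to 0.62). PTPN23, known as HD-PTP, has a Bro1 domain that binds the ESCRT machinery for sorting receptors at endosomes. It read 368 and 308 on its single kept probe set, of shared-sequence type, a log2 difference of -0.26 ± 0.38.

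In order of their log2 difference from lowest to highest the genes were PTPN13 (-0.93), PTPN2 (-0.37), PTPN12 (-0.29), PTPN23 (-0.26), PTPN4 (-0.18), PTPN11 (-0.12), PTPN14 (-0.02), PTPN1 (0.17), PTPN3 (0.52) and PTPN9 (0.58). The gap from PTPN13 to PTPN2 was 0.56 against an error of 0.44. Every other gap between neighbours was smaller than its error. This order is that of the brightest probe sets. With the mean or median over kept probe sets PTPN13 was at -0.47 and the next lowest gene was PTPN12, at -0.29. For 6 of the 10 genes the difference of the brightest probe set was itself smaller than its error, the exceptions being PTPN13, PTPN2, PTPN3 and PTPN9. In 6 genes at least 2 probe sets were kept, and 4 of these genes had probe sets on both sides of 0: PTPN2, PTPN3, PTPN11 and PTPN14. Opposite signs were also found in 41.9% of all genes with 2 kept probe sets, 73.5% of those with 4 and 85.4% of those with 5.

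**Figure D3:**
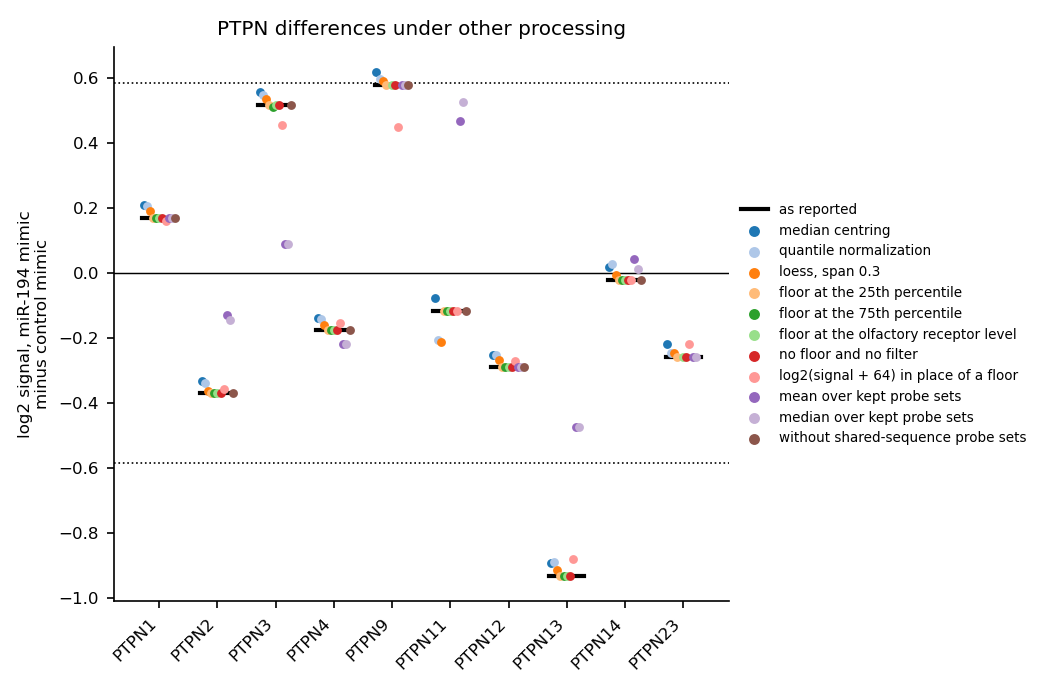
Log2 difference (miR-194 mimic minus control mimic) of each of the 10 PTPN genes as reported (black bar) and under 11 other ways of processing (coloured points), with dotted lines at 1.5-fold. PTPN13 stays between -0.93 and -0.47 and PTPN12 between -0.29 and -0.25, while PTPN11 turns positive when its probe sets are averaged.

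Most of these genes are long. In GRCh38.p14, PTPN4 spans 225 kb, PTPN13 221 kb, PTPN14 203 kb, PTPN3 163 kb, PTPN9 116 kb, PTPN12 103 kb and PTPN2 98.8 kb, which puts 7 of the 10 in the longest of 5 equal length classes of the genes analysed (from 91.7 kb). In that class, of 2552 genes, the share lower by at least 1.5-fold was 14.1% and the share higher was 1.72%, with a median log2 difference of -0.11. PTPN13 was the 1 of 7 PTPN genes there that was lower by that size. PTPN11 (91.0 kb) and PTPN1 (74.9 kb) lay in the next class, where 9.41% were lower, and PTPN23 (32.4 kb) in the middle class, where 5.64% were lower. The part of gene length in the PTPN13 value was not tested.

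Several of the remaining PTPN genes are known mainly from blood cells or neurons. PTPN5, PTPN20 and PTPN22 had no probe set above the floor on either array. PTPN6, the SHP2 relative of blood cells, read 72.2 and 83.3, a log2 difference of 0.21 ± 0.38. PTPN7 was at least 1.27-fold higher from 45.3, under the floor, to 87.0. PTPN18 stood at 0.06 ± 0.38, with another probe set at -0.36. PTPN21, the closest relative of PTPN14, read 266 on the control array and 156 on the miR-194 array on its single kept probe set, a log2 difference of -0.77 ± 0.38 or 1.70-fold lower. It was the 1 of 4 kept genes of that list lower by 1.5-fold or more, beside 7.31% of all genes. PTPN21 lost that place, just under that size at -0.58, with log2(signal + 64) in place of the floor.

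The receptor-type tyrosine phosphatases span the membrane and carry adhesion-like outer domains. Among the 11 kept genes the count past 1.5-fold was 2 lower and 0 higher, beside 7.31% and 2.98% of all genes. The median log2 difference of the 11 was -0.17. PTPRZ1, a receptor for pleiotrophin, was at -0.96 ± 0.38 (signals of 211 and 108). PTPRD was at -0.87 ± 0.38 (447 and 245), with its other probe sets between -0.52 and 0.43, and was under 1.5-fold with the mean (-0.32) or median (-0.52) over its probe sets and with a floor at the 75th percentile (-0.20). Of 12 kept non-receptor tyrosine kinases, the enzymes with the opposite reaction, 0 passed 1.5-fold in either direction on the brightest probe set (median -0.10). They ran from the SRC family kinase YES1 at -0.45 ± 0.27, with its other probe set at -0.72, to ABL2 at 0.24 ± 0.31. The other ABL2 probe sets were at 0.09 and 0.63. A dimmer probe set passed 1.5-fold for FYN (-1.16, brightest 0.05) and for LYN (0.75, brightest -0.11). YES1 passed 1.5-fold with the mean or median over its probe sets (-0.59) and on the probe set that is not of shared-sequence type.

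Partners and substrates were described by the phosphatase they are known for. Of 8 kept PTPN12 partners, 0 passed 1.5-fold (median -0.08), from BCAR1 at -0.42 ± 0.38 to the adaptor SHC1 at 0.07 ± 0.27, whose other probe set was at 0.73. Among 12 kept PTPN13 partners, 1 was lower and 1 higher by that size (median -0.05). The kinase PKN2 was at -0.80 ± 0.27 (signals of 3238 and 1865), with its other probe set at -0.45. The ephrin EFNB1 was at least 1.59-fold higher, from 45.9 under the floor to 109. Of 12 kept substrates of PTPN1 and PTPN2, 0 passed 1.5-fold on the brightest probe set (median 0.15). The lowest was STAT5A, at least 1.38-fold lower (-0.83 with a floor at the 25th percentile). The highest was the insulin receptor INSR at 0.49 ± 0.31, with other probe sets between -0.11 and 0.50. JAK1 was at 0.32 ± 0.27 on its brightest probe set, with others at 0.21 and 0.93.

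For PTPN11, 2 of 9 kept adaptors and partners were lower and 0 higher by 1.5-fold or more (median -0.14). SOS2, an exchange factor that loads RAS with GTP, was at -0.92 ± 0.38 (signals of 633 and 335), with its other probe set at -0.25, and their mean of -0.58 was just under 1.5-fold. The docking protein GAB2, which recruits PTPN11, was at -0.68 ± 0.38 (171 and 106) on its only kept probe set, which is of shared-sequence type, and at -0.46 with log2(signal + 64) in place of the floor. In the list of PTPN14 and the Hippo pathway, 2 of 18 kept genes were lower and 0 higher, with a median of -0.11 that turned to 0.15 with the mean or median over probe sets. YAP1, the coactivator held by PTPN14, was at -0.64 ± 0.27 (2752 and 1763), though its other probe sets lay between -0.46 and 0.14 and their mean (-0.32) and median (-0.46) with it were under 1.5-fold. LATS1, the kinase that phosphorylates YAP1, was at -0.62 ± 0.27 (2903 and 1883) on its single probe set. None of the 19 kept ESCRT genes around PTPN23 passed 1.5-fold on its brightest probe set (median -0.0016, above 0 with each of the 3 other scalings). They ran from STAM2 at -0.54 ± 0.31, with other probe sets between -0.90 and 0.12, to HGS at 0.28 ± 0.38. The other VPS37A probe set was at -0.66. None of the 5 kept partners of PTPN3, PTPN4 and PTPN9 passed 1.5-fold on its brightest probe set either (median 0.15). The lowest was the protease ADAM17 at -0.22 ± 0.31, with other probe sets at -0.32 and 0.42. The highest was the ATPase VCP at 0.43 ± 0.27, with its other probe set at 0.13. Past 1.5-fold were the other probe sets of MAPK12 (1.23, brightest 0.11) and NSF (-0.78, brightest 0.33). List counts are of brightest probe sets, and several lists hold unnamed genes with another probe set past 1.5-fold, such as GAB1 (-0.72) and WWC1 (0.90). Each list is set beside the same shares of all genes, 7.31% lower and 2.98% higher, and holds too few genes for a share to be read against them.

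**Figure D4:**
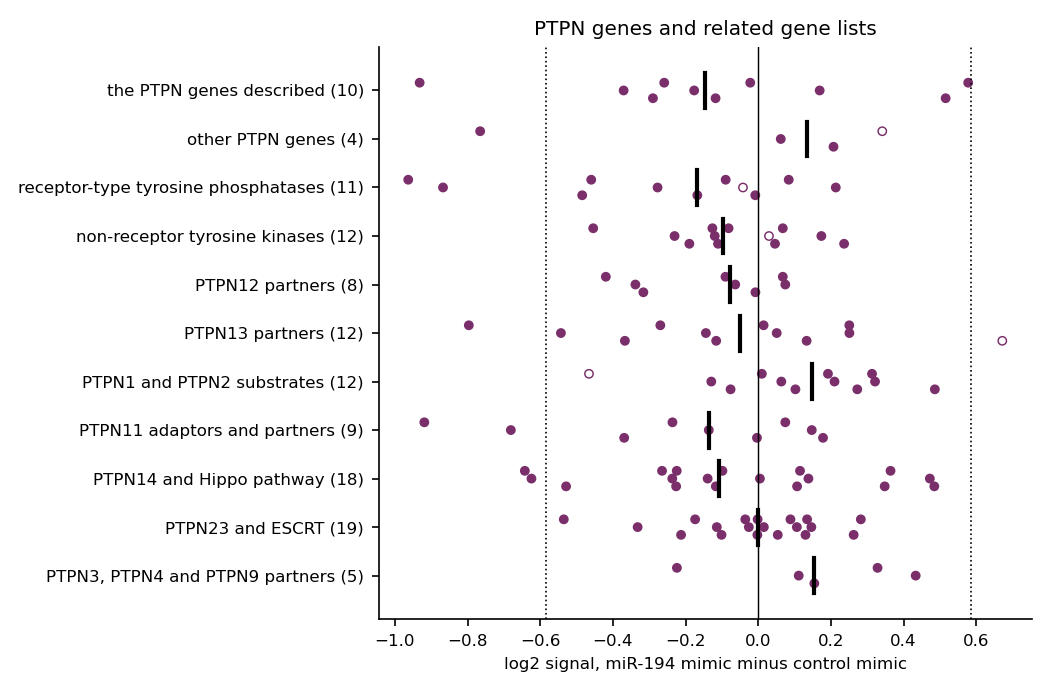
Log2 differences (miR-194 mimic minus control mimic) of the brightest kept probe set of each gene, by list, with the number of kept genes in brackets; black bars are medians, open points are bounds and dotted lines mark 1.5-fold. The list medians as plotted lie between -0.17 and 0.15, and single genes such as PTPN13, PTPRZ1 and SOS2 lie near -0.9.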

How the data were processed

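The values are log2 signals, deposited by the authors for 54675 probe sets on 1 array per group; the submitters' processing notes name MAS5. Its version, the log base and the scaling target were not given in the sources read. Read as log2 values and turned back to signals, both arrays have a 2% trimmed mean of 500.1. Platform annotation named 1 gene for 41091 probe sets outside the array controls (41037 matched RefSeq by Entrez identifier), and probe sets of several genes were left out.

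Signals under an array's median over non-control probe sets were set to it (6.10 and 6.06, log2). A probe set was kept when its mean floored signal exceeded the mean floor, and a gene was represented by its brightest kept probe set. A difference with 1 array under the floor is a bound, written "at least". For the probe set error, the differences of the brightest 2 kept probe sets were subtracted in 6456 genes, bounds included. The SD in 3 equal classes of the brightest probe set's mean signal was divided by the square root of 2. Each probe set was then given the error of the class of its own signal. For probe sets that are not the brightest of their gene the error is therefore approximate. The probe set error leaves out variation between cultures and labellings. No test was made. The members and lists were chosen with earlier results of these data known. All PTPN genes are named and, of each other list, up to 2 genes per direction past 1.5-fold or, where none passed, the highest and the lowest. Alternatives were 3 scalings between arrays, 5 treatments of low signals (1 floor from 107 olfactory receptor probe sets, 1 with 64 added), 3 ways to combine probe sets, a 2-fold threshold and counts of probe sets. Several alternatives could not move a value. A lower floor, or none, left the brightest probe sets of all 10 PTPN genes as they were. A floor at the 75th percentile moved PTPN3 alone, from 0.516 to 0.510. For the 4 PTPN genes with 1 kept probe set the mean and median were fixed. Without shared-sequence probe sets, the 8 PTPN genes left kept the same brightest probe set. The calculation used Python 3.11.15, numpy 2.4.6, pandas 2.3.3 and statsmodels 0.14.6. It was also run on simulated data, as a check of the code only. There, changes were put into genes of higher signal, with noise the size of the probe set error.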

Additional observations from a re-analysis of the deposited data

How the results depend on the processing

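Across 11 alternatives the 10 PTPN genes gave 106 values. Of these, 100 moved by less than the probe set error and 6 by more, and none past 1.5-fold changed sign. Many of the 100 could not move, as described above, so their number overstates stability. The 6 were those of PTPN3 (0.09), PTPN11 (0.47 and 0.52) and PTPN13 (-0.47) with the mean or median over probe sets. The count of PTPN genes lower by 1.5-fold was 0 in place of 1 with the mean or median over probe sets and at 2-fold. It was also 0 without shared-sequence probe sets (PTPN13 and PTPN23 then have no value). The count higher by 1.5-fold was 1 in place of 0 (PTPN9) with median centring, quantile normalization and loess, and 2 when probe sets were counted in place of genes. PTPN9 had no value with a floor at the 75th percentile, nor had PTPN23. The median over the PTPN genes stayed between -0.19 and -0.04. The median of the other PTPN genes, 0.13 as reported, was -0.35 without shared-sequence probe sets (2 genes left). It had no value with a floor at the 75th percentile. The share of all genes lower by 1.5-fold was 17.8% and higher 13.2% with no floor, and 6% and 0.726% with a floor at the 75th percentile. Of 200 values of 19 named list genes, 192 moved by less than the error, many likewise fixed, and none past 1.5-fold changed sign. A floor at the 25th percentile or none moved EFNB1 to 1.25 and STAT5A to -0.83. Calls at 1.5-fold were lost by YAP1 (-0.32, -0.46), PTPRD (-0.32, -0.52) and SOS2 (-0.58 in both) with the mean and median over probe sets, by PTPRD (-0.20) with a floor at the 75th percentile, and by GAB2 (-0.46) and PTPN21 (-0.58) with log2(signal + 64). PTPRZ1, GAB2, PTPN21 and EFNB1 had no value with a floor at the 75th percentile, and GAB2 none without shared-sequence probe sets. The kinases, with 0 past 1.5-fold as reported, had up to 2 lower and 4 higher in an alternative, the receptor-type phosphatases 0 to 4 lower and up to 2 higher, and the adaptors of PTPN11 from 1 to 3 lower; counts of the other lists moved by at most 2. Medians also crossed 0 for the Hippo list (0.15), the kinases (0.03), the PTPN13 partners (0.01) and the ESCRT list (up to 0.04). No paired analysis was possible because each group has 1 array. The low signals limit what can be read of the 14 probe sets under the floor.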
